A study of Mus musculus with 6 samples.

Results

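The miR-181 family of mouse consists of 4 mature microRNAs (miRNAs) read from the 5p arm of their hairpins: mmu-miR-181a-5p, mmu-miR-181b-5p, mmu-miR-181c-5p and mmu-miR-181d-5p, written below without the species prefix. Members were taken from the scanner files as the non-control entries whose name carries exactly the family's number, with any letter, on the 5p arm, and they made up 4 of the 1247 mouse miRNAs on the array. The question put by the study is which miRNAs of 3T3-L1 adipocytes differ when interleukin-6 (IL-6) is present while the cells turn into adipocytes.

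The cells were mouse 3T3-L1, an established line of embryonic fibroblasts that becomes fat-storing under a hormone mixture, sampled on day 8 of adipogenic differentiation. The 2 samples of the IL-6 group received recombinant IL-6, made in E. coli, at 1 ng/ml from the induction of differentiation, and the 4 samples of the control group received none. Both groups shared the inducing agents isobutyl-methylxanthine, dexamethasone, insulin and rosiglitazone, of which dexamethasone is itself an anti-inflammatory steroid. Total RNA was labelled with Cy3 and read on 1-colour Agilent miRNA arrays, 1 array per sample. Nothing in the labels says that the samples of a group were separate cultures, so p-values here rest on the spread among the samples as given, and that spread may be technical.

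A miRNA guides a silencing complex to messenger RNAs that pair with its seed, the stretch near its 5′ end, so miRNAs with 1 seed share many of their predicted targets. The miR-181 family is best known from lymphocytes, where miR-181a tunes T cell receptor signalling and promotes B-lineage differentiation, and from endothelium, where miR-181b has been described as a brake on NF-κB signalling. IL-6 signals through gp130 and JAK kinases to STAT3, and STAT3 has been described as an activator of miR-181b-1 in human breast epithelial cells, which is why the family is of interest beside this cytokine.

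The mature sequences are shown because the seed is what makes these miRNAs a family, while the bases outside it are what an array probe can tell apart. They are RefSeq's for GRCm38.p6, written 5′ to 3′ with the seed, bases 2 to 8, in capitals.
miR-181a-5p: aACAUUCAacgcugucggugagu
miR-181b-5p: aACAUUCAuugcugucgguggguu
miR-181c-5p: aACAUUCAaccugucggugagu
miR-181d-5p: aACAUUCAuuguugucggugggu
All 4 names matched a RefSeq entry, and all 4 carry the seed ACAUUCA. Among the 1679 mature mouse miRNA names in that table, no name outside the family has this seed.

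Outside the seed the members form pairs of close relatives. Counted from the 5′ end of miR-181a-5p, miR-181c-5p lacks G11 and is otherwise identical to it. Relative to miR-181b-5p, miR-181d-5p carries the substitution C12U and is 1 U shorter at its 3′ end. Relative to miR-181a-5p, miR-181b-5p differs by A9U, C10U and A21G and by 1 additional U at its 3′ end.

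The 6 hairpins lie in 3 clusters on GRCm38.p6, each with 1 hairpin of either kind. Mir181a-1 (chr1:137966455-137966541, plus strand) and Mir181b-1 (chr1:137966639-137966718, plus strand) have 97 bases between them and lie within no other annotated gene. Mir181a-2 (chr2:38852735-38852810, plus strand) and Mir181b-2 (chr2:38853830-38853918, plus strand) have 1019 bases between them. Both lie within the bounds of the protein-coding gene Nr6a1, an orphan nuclear receptor, and of the long noncoding RNA Nr6a1os. Exon bounds were not used here. Mir181d (chr8:84178716-84178787, minus strand) and Mir181c (chr8:84178873-84178961, minus strand) have 85 bases between them and lie within no other annotated gene. Since the hairpins on chromosomes 1 and 2 give the same mature miR-181a-5p, and likewise the same miR-181b-5p, the array value of either one sums over both loci.

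Each member had 2 probes of 20 spots per array, and the shorter probe of each is shown with the bases that differ from a close relative. The probes are DNA, complementary to the 3′ part of the miRNA, written 5′ to 3′ as in the scanner files, and capitals mark the bases that do not pair with the closest other member when both are aligned without gaps.
miR-181a-5p probe: acTcaccgacagc
miR-181b-5p probe: acCcaccgacagc
miR-181c-5p probe: actcaccgacagGTtGAa
miR-181d-5p probe: acccaccgacaAcaat
The miR-181a-5p probe pairs at 12 of its 13 bases with miR-181b-5p, and at an unbroken run of 12 bases with miR-181c-5p. The miR-181b-5p probe pairs at 12 of 13 bases with miR-181a-5p and also at 12 with miR-181d-5p. For these tied probes, the capitals refer to miR-181b-5p in the miR-181a-5p probe and to miR-181a-5p in the miR-181b-5p probe. The longer miR-181b-5p probe, of 14 bases, pairs at 13 with miR-181d-5p. The miR-181c-5p probe, of 18 bases, pairs at 14 with miR-181a-5p without gaps. All 18 can pair if G11 of miR-181a-5p is left unpaired. The miR-181d-5p probe, of 16 bases, pairs at 15 with miR-181b-5p. The probes of miR-181a-5p and miR-181b-5p do not reach the seed. Cross-hybridisation between members was not tested, and since brightness also depends on the probe, no member's level is set against another's.

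The arrays held from 300 to 313 detected miRNAs in IL-6 cells and from 268 to 294 in control cells, no spot was saturated, and all 6 arrays sat on 1 slide with 1 scan time. By an outlier check, control 4 stood apart from the other controls for 4 of 32 miRNAs, none of them a family member. Values without it are given for miR-181b-5p, miR-181d-5p and the count of called miRNAs. The lists of other miRNAs further below are given with all 6 arrays only. The IL-6 arrays were all in slide row 2 and the control arrays all in row 1, so row and group cannot be told apart, whereas columns 3 and 4 each held 1 array of either group. Signals are in the scanner's intensity units after scaling each array to a common 75th percentile of detected probes. Values under 6.25 units, the highest of the arrays' lowest detected signals, were set to this floor before log2 was taken. Detection was judged separately, from the share of a probe's spots well above background.

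Of the 4 members, miR-181a-5p and miR-181b-5p were detected on all 6 arrays, and miR-181c-5p and miR-181d-5p on none. IL-6 and control arrays overlapped for both detected members, and neither passed the test. Across the array, 1 of 299 tested miRNAs passed at an adjusted p under 0.05 (limma), a share of 0.334%, so 0 of 2 detected family members is near the background. At an unadjusted p under 0.05 the share was 22.7%, again with 0 of 2 members. The miRNA that passed, miR-5117-5p, was higher in IL-6 cells by 1.03 on the log2 scale (limma, adjusted p = 0.00685) and is no member. That call was lost with slide column as a block and with the replicate number as a block. Each left 0 calls (limma, 50 miRNAs at an unadjusted p under 0.05 in both). Either way some control arrays stand alone in their block, so fewer arrays carry the comparison. An effect of column or number was not tested. Normexp background, the deposited series values and a filter for detection on all 6 arrays also left 0 calls. The count reached 34 without scaling and 42 with the scanner's total gene signals.

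**Figure D1:**
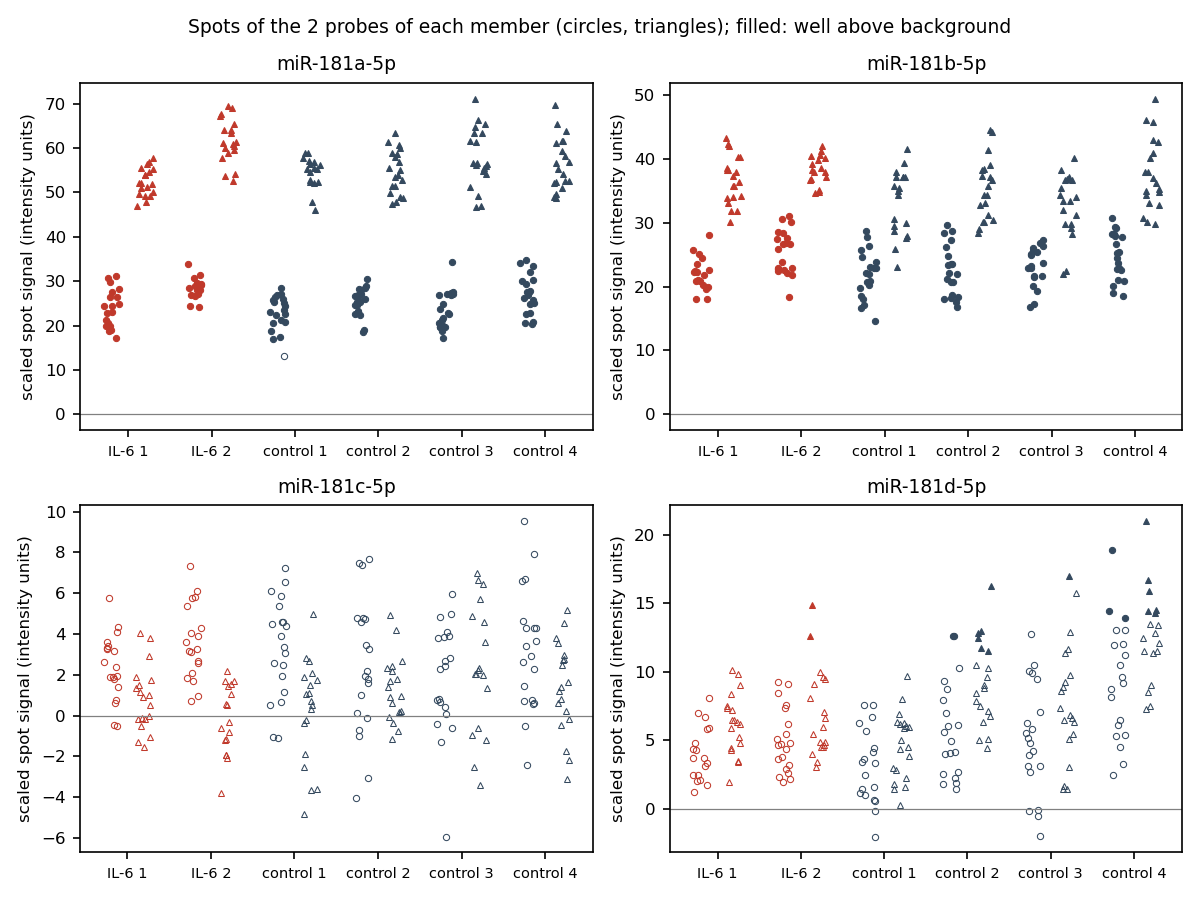
Scaled signal of each kept spot (intensity units, vertical axis) on the 2 IL-6 arrays (red) and the 4 control arrays (dark), with circles and triangles for the 2 probes of a member and filled symbols for spots well above background. Spots of miR-181a-5p and miR-181b-5p are filled on every array but for 1 spot of miR-181a-5p on control 1, all spots of miR-181c-5p are open, and miR-181d-5p has 2 filled spots on the IL-6 arrays and 18 on the control arrays.

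mmu-miR-181a-5p, the member with the T cell role, had scaled signals of 38.2 and 45.0 on the IL-6 arrays, against 38.7, 40.0, 40.7 and 41.9 on control arrays 1 to 4. The 2 IL-6 arrays lay on either side of all controls, 1 just below the lowest and 1 above the highest. On the log2 scale the means were 5.37 ± 0.17 in IL-6 cells (SD, n = 2) and 5.33 ± 0.048 in control cells (SD, n = 4). The difference, IL-6 minus control, was 0.043 ± 0.090 (SE), with a 95% interval from -0.18 to 0.26 (limma, adjusted p = 0.836). As a fold change this was 1.03, with an interval from 0.884 to 1.20. By an exact two-sided permutation test, 10 of the 15 splits of the arrays gave a difference at least as large (p = 0.667, where the smallest p this design allows is 0.0667).

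mmu-miR-181b-5p, its partner in the clusters on chromosomes 1 and 2, had scaled signals of 29.4 and 31.9 on the IL-6 arrays, against 27.5, 28.9, 27.9 and 31.2 on control arrays 1 to 4. Both IL-6 arrays lay above 3 of the controls, and control 4 lay between them. The log2 means were 4.94 ± 0.082 in IL-6 cells (SD, n = 2) and 4.85 ± 0.080 in control cells (SD, n = 4). The difference was 0.086 ± 0.083 (SE), with a 95% interval from -0.12 to 0.29 (limma, adjusted p = 0.589), or a fold change of 1.06 between 0.922 and 1.22. In the same exact permutation test 4 of 15 splits were as large (p = 0.267). Groups that did not overlap, in either direction, were found for 34.8% of all tested miRNAs and for 0 of these 2 members.

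**Figure D2:**
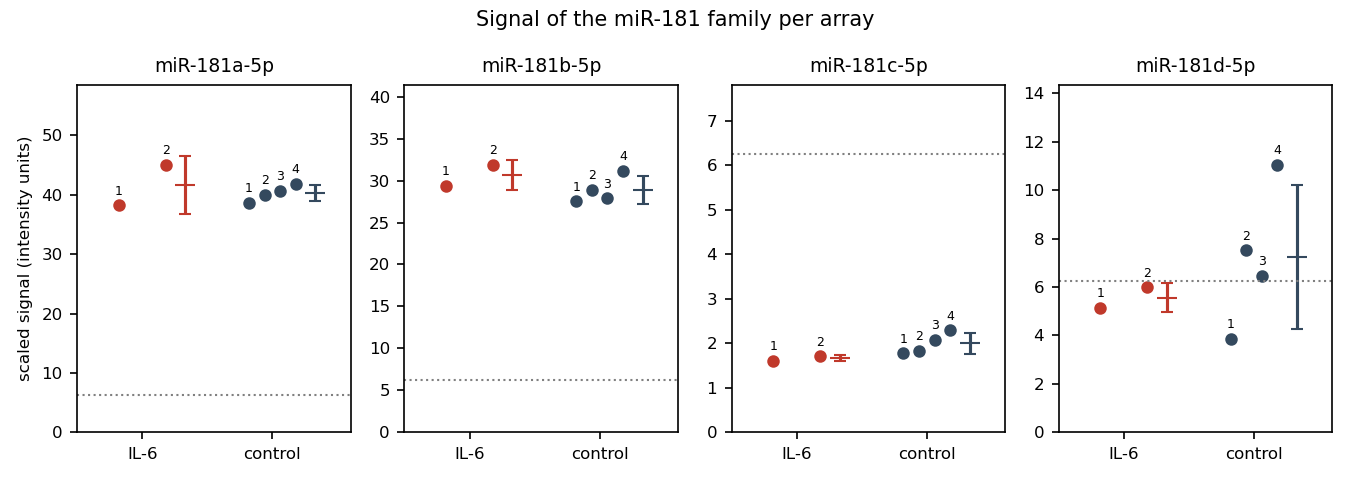
Scaled signal per array (intensity units, linear axes from 0) for the 2 IL-6 arrays and, to their right, the 4 control arrays, numbered by replicate, with the mean and SD beside each group and the floor of 6.25 as a dotted line. The IL-6 and control points overlap for miR-181a-5p, miR-181b-5p and miR-181d-5p, and miR-181c-5p lies under the floor throughout.

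The differences of both members were smaller than those of most miRNAs on the array. The median of all 299 differences was -0.016 and the median of their sizes was 0.14. A larger absolute difference than that of miR-181a-5p was found for 242 of the tested miRNAs (80.9%), and a larger one than that of miR-181b-5p for 195 (65.2%). Their standard errors, 0.090 and 0.083, were a little under the median of 0.11. With the scaling used here, the intervals leave room for 0.884-fold to 1.20-fold in miR-181a-5p and 0.922-fold to 1.22-fold in miR-181b-5p. The number of arrays limits this precision, and the intervals also depend on the scaling. Scaled to spike-in RNAs, the log2 intervals were -0.19 to 0.79 for miR-181a-5p and -0.15 to 0.83 for miR-181b-5p. Without scaling they were -0.25 to 0.93 and -0.20 to 0.96.

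**Figure D3:**
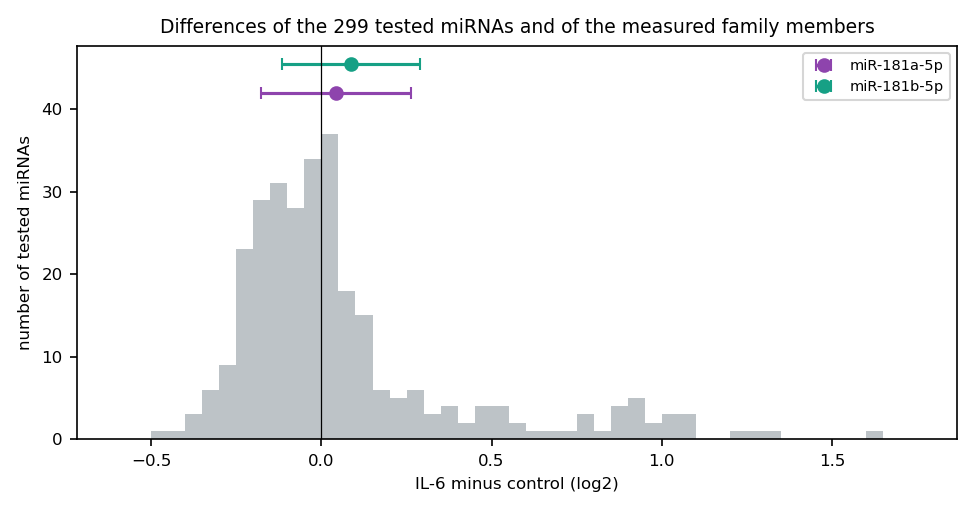
Number of tested miRNAs (vertical axis) by IL-6 minus control difference (log2, horizontal axis), with the differences of miR-181a-5p and miR-181b-5p and their 95% intervals drawn above the bars. Both intervals span 0, and the points, 0.043 and 0.086, sit near the middle of the distribution, whose median is -0.016.

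The sign of so small a difference turned with the scaling. With the 75th percentile taken over all mouse probes, the differences were -0.069 for miR-181a-5p and -0.025 for miR-181b-5p. That setting divides each array by a different single factor, so the median of all tested miRNAs moved with the members, to -0.13. Their place above the median could not change by it. Without scaling or with spike-ins it could change only through values at the floor. Without scaling, the differences were 0.34 and 0.38, beside a median of 0.27 over all tested miRNAs, and with scaling to spike-in RNAs they were 0.30 and 0.34 beside a median of 0.23. The spike-in probes averaged for this did not move together. On control 4, 1 of them read 232 units against 134 to 158 on the other controls, and another 32537 against 36640 to 37754. Relative to the median, the 22 alternatives put miR-181a-5p between -0.076 and 0.18 and miR-181b-5p between -0.033 and 0.16. Without IL-6 2 the difference of miR-181a-5p was -0.076, and without IL-6 1 it was 0.16. None of the 20 alternatives with a test called either member (limma, adjusted p from 0.482 to 0.970 for miR-181a-5p and from 0.304 to 0.947 for miR-181b-5p).

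**Figure D4:**
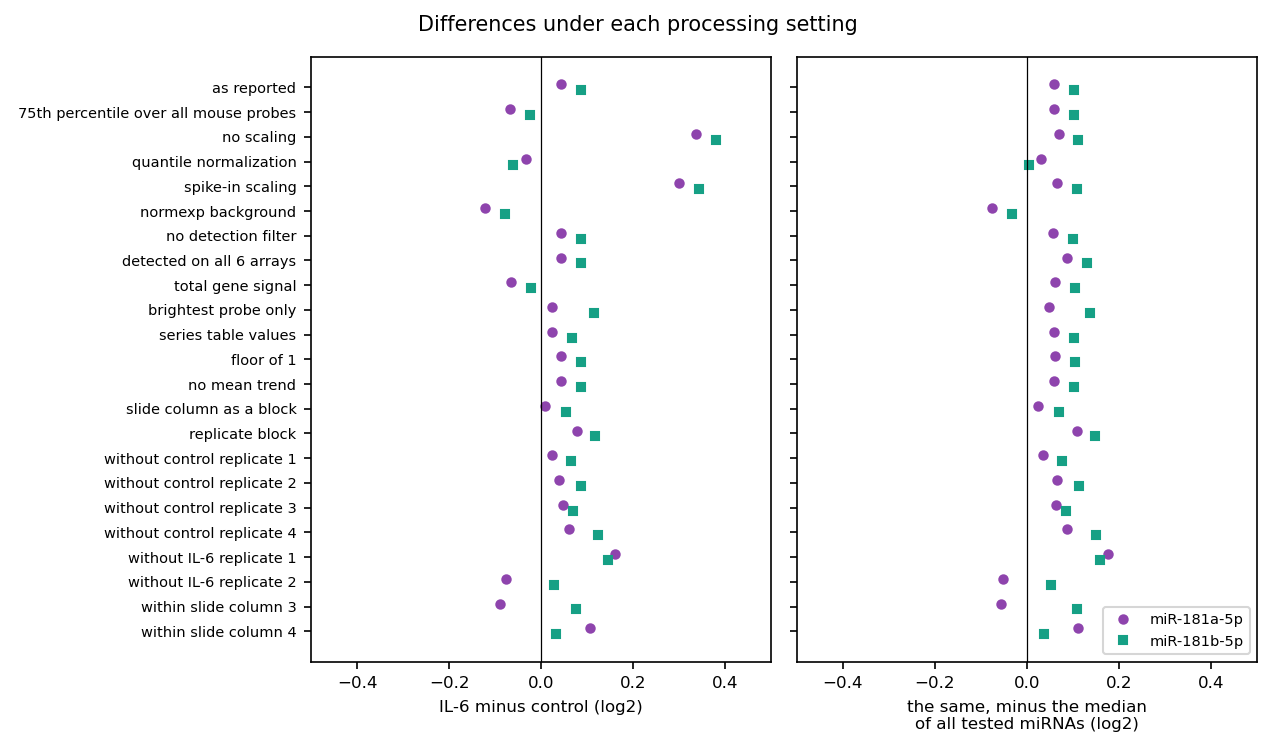
IL-6 minus control difference (log2) of miR-181a-5p (circles) and miR-181b-5p (squares) as reported and under each alternative setting, on the left as computed and on the right minus the median of all tested miRNAs in that setting. The left points spread from -0.12 to 0.38, and the right points from -0.076 to 0.18.

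The 2 highest arrays for miR-181a-5p, and likewise for miR-181b-5p, were the arrays of slide column 4, IL-6 2 and control 4. In column 3, IL-6 1 had the lowest miR-181a-5p signal of all arrays, 38.2, while control 3 had 40.7. For miR-181b-5p these 2 arrays had 29.4 and 27.9. Columns 1 and 2 held only a control array each. Within column 3, with 1 array per group and so no test, IL-6 minus control was -0.090 for miR-181a-5p and 0.076 for miR-181b-5p. Within column 4 the differences were 0.11 for miR-181a-5p and 0.032 for miR-181b-5p. A fit blocked on column gave 0.0076 for miR-181a-5p (limma, adjusted p = 0.970) and 0.054 for miR-181b-5p (limma, adjusted p = 0.718). The part of slide position in these levels was not tested further.

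With the scaling used here, each probe of a detected member gave a difference above 0 and overlapping groups. For miR-181a-5p the probe differences were 0.087 for the probe of 13 bases and 0.024 for that of 14 bases. For miR-181b-5p they were 0.042 for the probe of 13 bases and 0.11 for that of 14 bases. The probes of 1 miRNA overlap in sequence and share the array, so they are not replicates. Within a probe and array, the coefficient of variation over spots lay between 5.83% and 17.8%. Well above background were 72 of 72 kept spots for miR-181a-5p in IL-6 cells and 156 of 157 in control cells, and for miR-181b-5p all 75 in IL-6 cells and all 157 in control cells.

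Because miR-181a and miR-181b share clusters, their ratio was followed as well. The log2 ratio of miR-181b-5p to miR-181a-5p was -0.38 and -0.50 on the IL-6 arrays, against -0.49, -0.47, -0.55 and -0.43 on control arrays 1 to 4. One IL-6 array lay above every control and the other within their range. The means were -0.44 ± 0.085 (SD, n = 2) in IL-6 cells and -0.48 ± 0.050 (SD, n = 4) in control cells, and differed by 0.043 (exact permutation test, p = 0.467). The size of the ratio itself depends on the probes and is no ratio of molecules.

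mmu-miR-181c-5p, one of the chromosome 8 members, gave scaled signals of 1.61 and 1.71 on the IL-6 arrays, against 1.78, 1.84, 2.08 and 2.30 on control arrays 1 to 4. All 6 values lay below the floor of 6.25. No spot was well above background, 0 of 74 in IL-6 cells and 0 of 155 in control cells, so neither a fold nor an order of the groups is read from them. The 2 probes went opposite ways, with IL-6 minus control at 0.300 units for one and -0.977 units for the other, and overlapping groups in both. The scanner software did not detect it on any array either.

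mmu-miR-181d-5p, the other chromosome 8 member, gave scaled signals of 5.14 and 6.00 on the IL-6 arrays, against 3.88, 7.52, 6.47 and 11.0 on control arrays 1 to 4. Both IL-6 arrays and control 1 lay below the floor, and controls 2 and 4 were the highest. Well above background were 2 of 76 spots in IL-6 cells (2.63%) and 18 of 157 in control cells (11.5%), of which control arrays 1 to 4 held 0, 8, 1 and 9. By the rule used here, at least a share of 0.5 of a probe's spots, it was detected on no array. The scanner software's own call was positive on control arrays 2 and 4 alone, with total gene signals of 3.69 and 7.62 intensity units. The scaled difference, IL-6 minus control, was -1.66 units, against an SD of 0.605 among the IL-6 arrays and 2.97 among the controls, and the groups overlapped. Entered in the fit with no detection filter, it had a log2 difference of -0.28 with a 95% interval from -0.85 to 0.28 (limma, adjusted p = 0.530), in which both IL-6 arrays stand at the floor. Without control 4 the scaled difference was -0.386 units.

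The opposite arms of the same hairpins, which are usually degraded as passenger strands, gave no signal told from background. All 6 were on the array: miR-181a-1-3p, miR-181a-2-3p, miR-181b-1-3p, miR-181b-2-3p, miR-181c-3p and miR-181d-3p. The 4 probes of miR-181a-2-3p run past the 3′ end of RefSeq's mature sequence and do not fully match it, so its low values say little of its level. None of the 36 readings, 6 arms on 6 arrays, was detected, and none of their kept spots was well above background. Their scaled signals lay between -2.40 and 3.08 units, where negative values come from background subtraction. A single spot of miR-181a-1-3p on control 1, marked as an outlier by the scanner software and left out, read 5100.1 units. The array thus gave no reading of which hairpin of the miR-181a and miR-181b pairs contributed to the mature level.

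Over the 6 arrays, the log2 values of miR-181a-5p and miR-181b-5p had a Pearson r of 0.77, with array, slide and scaling in common. miR-181b-5p ranked the third among all tested miRNAs in likeness to miR-181a-5p. Outside the family the closest to miR-181a-5p were miR-5128 (r = 0.88), miR-3061-5p (r = 0.83) and miR-877-5p (r = 0.76), beside a median r of 0.087 over all other tested miRNAs. They were picked from all tested miRNAs for their high r over only 6 arrays, and their likeness was not tested. miR-3061-5p stood at the floor on every array but IL-6 2, so its likeness rests on that array.

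The profile of miR-181b-5p was closest to miR-6243 (r = 0.94), miR-370-3p (r = 0.93) and miR-6378 (r = 0.93), beside a median of -0.16, and miR-181a-5p ranked 32 in likeness to it. The closest miRNAs were picked in the same way, with no test. The levels of miR-6243 were 12.20 and 12.93 (log2) on the IL-6 arrays, against 11.24, 11.27, 11.43 and 12.58 on control arrays 1 to 4. Control 4 lay above the other controls and between the IL-6 arrays, as it did for miR-181b-5p. Without control 4 the difference of miR-181b-5p was 0.12 (limma, adjusted p = 0.304), and 31 miRNAs were called over the array.

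The miRNAs tied to IL-6, STAT3 or NF-κB signalling were not called either. Of the 11 listed, 7 were tested, 0 passed as higher and 0 as lower, and their median difference was -0.031, beside -0.016 for all tested miRNAs. The 3 with the highest signal were miR-21a-5p, a STAT3 target in several cell types, with -0.15 (limma, adjusted p = 0.244), let-7a-5p, which has been described as targeting IL6 transcripts in human cells, with -0.031 (adjusted p = 0.916), and miR-125b-5p with -0.10 (adjusted p = 0.600). For 2 of the 7, both IL-6 arrays lay below every control array: miR-21a-5p, and miR-155-5p with -0.35 (limma, adjusted p = 0.0859), which is named here after its values were seen. This is to be read beside the 21.7% of all tested miRNAs whose IL-6 arrays lay below every control. miR-132-3p, miR-146a-5p, miR-223-3p and miR-9-5p of the list were not detected on any array.

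Markers of the cell types in which the family is best known were not detected on these arrays. None of the 6 lymphoid and blood markers on the array (miR-142-3p, miR-142-5p, miR-144-3p, miR-150-5p, miR-223-3p and miR-451a) was detected, with summed scaled signals of 2.22 to 3.23 in IL-6 cells and 3.87 to 5.84 in control cells. In all marker sums, signals below 0 were counted as 0. The endothelial markers miR-126-3p and miR-126-5p were also undetected, with sums of 1.74 to 2.87 in IL-6 cells and 0.651 to 3.43 in control cells. So were the muscle markers miR-1a-3p, miR-133a-3p and miR-206-3p, with sums of 0.899 to 2.06 in IL-6 cells and 0.799 to 2.84 in control cells. All of these sums lie below the floor of 6.25 units.

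Next come miRNAs associated with the labelled cell type. No undifferentiated sample was among the arrays, so their detection does not tell adipocytes from their precursors. All 6 adipocyte-associated miRNAs were detected, the brightest being miR-103-3p, with a difference of -0.11 (limma, adjusted p = 0.455), and miR-143-3p, with -0.39 (adjusted p = 0.0844). Their summed signals were 3409 to 3429 in IL-6 cells and 3540 to 4085 in control cells, all 6 differences were below 0 with a median of -0.18, and 0 of 6 were called. Over the array, 165 of 299 tested miRNAs had a difference below 0. For 3 of the 6, miR-143-3p and, named after their values were seen, miR-378a-3p and miR-378a-5p, both IL-6 arrays lay below every control array, to be read beside the same 21.7% of all tested miRNAs. The 4 mesenchymal miRNAs summed to 4596 to 5108 in IL-6 cells and 4330 to 5295 in control cells, with a median difference of -0.025 and 0 of 4 called. The brightest were miR-199a-3p, with -0.045 (limma, adjusted p = 0.871), and miR-199a-5p, with -0.0044 (adjusted p = 0.992). The part of these marker levels in the values of the family was not tested.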

How the data were processed

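Per the file headers, the authors' scanner files came from Agilent Feature Extraction 10.10.1.1, also named in the submitters' processing notes. Their deposited intensity values had background subtracted, so some are below 0. Flags deposited per spot, of another unit (yes or no), mark which spots are well above background and which are outliers. The deposited series table held intensity values equal to the scanner's total signal per probe (largest difference 0).

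Control spots and spots flagged as outliers were left out. Spots were averaged per probe, and a probe was detected where the share of its spots well above background reached 0.5. Arrays were scaled by the 75th percentile of the 502 probes detected on all arrays, probes were averaged per miRNA, values under 6.25, the highest of the arrays' lowest detected signals, were raised to it, and log2 was taken; changes of dim miRNAs are understated by this. The 299 miRNAs detected on all 4 control or both IL-6 arrays were fitted with limma 3.58.1 in R 4.3.3 (lmFit, eBayes with a mean trend), two-sided, with Benjamini-Hochberg adjustment over all 299 and a threshold of 0.05. The fit was tested on simulated data. Permutation tests ran over all 15 splits of 6 arrays. Groups came from the sample titles.

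The members and lists were chosen with earlier results of these data known. Named were all members, the 3p arms, in the IL-6 list any called miRNA and the 3 brightest, the 3 miRNAs outside the family most like each detected member by Pearson r, undetected markers, and the 2 brightest adipocyte and mesenchymal markers. Positions and mature sequences are RefSeq's for GRCm38.p6, matched by name. For the chromosome 8 hairpins, the probe positions given in the scanner files are mirrored within the hairpin, and RefSeq's were used.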

Additional observations from a re-analysis of the deposited data

Results flagged for a closer look

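No member of the miR-181 family had a control array marked as standing apart. With 4 control arrays such a check can miss a distant one. miR-181d-5p, which was not marked, read 11.0 on control 4 and 3.88 to 7.52 on the other controls. Among 32 miRNAs checked over the 4 control arrays with Dixon's test at 95%, 5 had 1 array standing apart from the other 3. Chance marks about 1 independent group in 20, but these groups share the same 4 arrays, so their count is not tested against it. In 4 of the 5 it was control 4. There miR-6243 was at 12.58 (log2), against 11.24 to 11.43 on the other controls, and miR-370-3p was at 4.75, against 3.88 to 3.98. Both were checked because they are among the miRNAs most like miR-181b-5p, whose own highest control was control 4. Control 4 was also low for miR-146b-5p, at 9.25 against 9.51 to 9.55, and for miR-199a-3p, at 11.35 against 11.63 to 11.68. Control 1 was high for miR-145a-5p, at 7.55 against 7.37 to 7.38.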

How the results depend on the processing

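Neither detected member was called under any alternative with a test, and the number of arrays and the dimness of miR-181c-5p and miR-181d-5p limit what can be seen. The difference of miR-181a-5p turned negative with all mouse probes in the percentile (-0.069), quantile normalization (-0.034), normexp background (-0.12), the scanner's total gene signal (-0.065) and within slide column 3 (-0.090), and over the arrays left out in turn it lay between -0.076, without IL-6 2, and 0.16, without IL-6 1. That of miR-181b-5p turned negative under the same settings except within column 3 (-0.025, -0.061, -0.079 and -0.021), and lay between 0.028 and 0.14 with 1 array left out. The causes were not tested. The scalings also moved the median of all miRNAs. Relative to that median, miR-181a-5p was still negative with normexp (-0.076), within column 3 (-0.057) and without IL-6 2 (-0.051). So was miR-181b-5p with normexp (-0.033). In the other settings that turned, both members lay above the median. For undetected miR-181c-5p the difference in scaled intensity, -0.339 units, became 0.0217 without scaling, -0.0115 with spike-ins, 0.300 by the brightest probe, -11.6 with normexp and -0.590 within column 4, and -0.238 to -0.411 units with 1 array left out. For miR-181d-5p, -1.66 units became -12.7 with normexp and -5.05 within column 4, -3.19 with column as a block, -0.535 without scaling, -0.542 with spike-ins and -0.128 with the replicate block, and -0.386 to -2.78 with 1 array left out, the nearest to 0 being without control 4. The normexp values hold an offset of 50 that is scaled with the signal.

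The count of called miRNAs, 1 of 299, was 2 with all mouse probes in the percentile, 34 without scaling, 36 with spike-ins, 2 of 336 with no detection filter, 42 with total gene signals (13 higher, 29 lower), 14 by the brightest probe and 7 with a floor of 1. It was 0 with normexp (30 at an unadjusted p under 0.05), among 264 detected on all 6 arrays (56), in the series table (79) and with column as a block (50). With 1 array left out it ranged from 1 to 31, the highest without control 4 (23 higher, 8 lower), with 5 without IL-6 1 and 3 without IL-6 2, where the lone IL-6 array is assumed to vary like the controls. With the replicate number as a block the count was 0 (50 at an unadjusted p under 0.05), and the differences were 0.078 for miR-181a-5p and 0.12 for miR-181b-5p. Same-numbered arrays had deviations from their group mean correlated at 0.058 for number 1 and -0.34 for number 2. Arrays of the same slide column had deviations correlated at 0.41 in column 3 (IL-6 1 and control 3) and 0.51 in column 4 (IL-6 2 and control 4). With 2 IL-6 arrays, the deviations of one are those of the other with the sign reversed. These values thus rest on a single contrast and cannot show whether arrays are paired by number or by column. No value on the same scale exists for the undetected members with total gene signals, the series table, a floor of 1 or the stricter filter.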
